A study of Brachypodium distachyon with 214 samples.

Results

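Bradi1g44480 and Bradi1g37410 are 2 nuclear genes of the annual grass Brachypodium distachyon that the study inferred to be a regulator and its target in droughted leaves. They were taken by locus name from a table of 32523 rows, and both were among the 26164 genes tested. The study's text calls Bradi1g44480 an ortholog of IAR4 and Bradi1g37410 a dehydrin and an ortholog of RAB18. These names were not checked here, since no annotation used here pairs them with the loci. By their locus names, both genes lie on chromosome 1.

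In Arabidopsis, IAR4 encodes a subunit of mitochondrial pyruvate dehydrogenase, and its mutants respond less to auxin conjugates. Dehydrins are hydrophilic proteins that accumulate in drying tissue, where they are thought to protect membranes and other proteins. RAB18 of Arabidopsis is a dehydrin whose transcript responds to abscisic acid (ABA), the hormone that closes stomata and turns on many drought genes when water runs short.

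Each library came from leaf tissue of 1 plant, and 214 plants were sequenced. The inbred accessions Bd21 and Bd3-1 were grown. Droughted plants were dried from day 33 over 6 days to 55% of field capacity, the water that a drained pot holds. Control plants were held at 85%. The groups were droughted Bd21 (n = 49), droughted Bd3-1 (n = 59), control Bd21 (n = 48) and control Bd3-1 (n = 58). All plants were wild type, and no gene was altered.

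Library totals ranged from 0.525 to 8.37 M counts, with a median of 1.92 M. Plastid sequences took 4.76 to 9.66% of the counts, and photosynthesis genes could not be checked one by one because the plastid rows carry no gene names. The plant labelled Bd3-1 drought replicate 59 went against its label. At the 100 genes that differed most between the accessions in control plants, it was nearer to the Bd21 mean at 99, against 98 to 100 in droughted Bd21 plants and 0 to 8 in the other droughted Bd3-1 plants. It was left out of the values below unless they say otherwise. It held 19.1 normalized counts of Bradi1g44480 and 4.09 of Bradi1g37410, inside the range of the other droughted Bd3-1 plants for both genes. Levels are counts divided by each library's size factor (relative log expression). In whole leaves, a level per cell and the number of cells that carry the transcript cannot be told apart.

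Both genes had higher levels in droughted leaves. The mean of Bradi1g44480 was 2.77-fold higher in Bd21 and 3.59-fold higher in Bd3-1, and Bradi1g37410 was hardly detected in control leaves. The study chose the pair on these plants for its behaviour under drought, so the drought differences of these 2 genes are given as a description without a test.

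Bradi1g44480 had a lowest, median and highest level of 4.29, 15.7 and 36.6 normalized counts in droughted Bd21. In droughted Bd3-1 these were 3.37, 15.5 and 35.6. In control Bd21 they were 0.933, 6.31 and 13.5, and in control Bd3-1 they were 0, 4.48 and 11.5. The ranges overlapped: 34 of 49 droughted Bd21 plants and 45 of 58 droughted Bd3-1 plants lay above the highest control plant of their accession. The means were 17.5 ± 7.50 in droughted Bd21 (SD, n = 49) and 16.4 ± 7.26 in droughted Bd3-1 (n = 58), against 6.34 ± 2.79 in control Bd21 (n = 48) and 4.58 ± 2.27 in control Bd3-1 (n = 58). Fitted by edgeR, drought over control was 1.47 ± 0.13 (SE) for Bd21 and 1.83 ± 0.13 for Bd3-1 on the log2 scale, or 1.85 with replicate 59.

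Bradi1g37410, the dehydrin, had a lowest, median and highest level of 0, 2.99 and 27.8 normalized counts in droughted Bd21. In droughted Bd3-1 these were 0, 3.84 and 25.6. Its median was 0 in both control groups, with a highest level of 2.13 in control Bd21 and 1.81 in control Bd3-1. Most control plants therefore held no count of it, while most droughted plants did. It was at 0 in 7 of 49 droughted Bd21 plants and 8 of 58 droughted Bd3-1 plants, against 40 of 48 control Bd21 and 49 of 58 control Bd3-1 plants. A count of 0 allows up to 3 counts in a library, and 3 counts were worth about 3.03 normalized counts in control Bd21 and 3.22 in control Bd3-1.

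The summed control counts of Bradi1g37410 were 9 in each accession, against 242 in droughted Bd21 and 388 in droughted Bd3-1. With each group scaled to the same total, drought over control was 28.6-fold in Bd21 (95% exact interval 14.8 to 63.4) and 40.9-fold in Bd3-1 (21.3 to 90.1). These intervals cover counting error only. The fit by edgeR, which weighs plants and adds a prior count, gave 16.5-fold in Bd21 (log2 4.04 ± 0.37, SE) and 22.6-fold in Bd3-1 (log2 4.50 ± 0.35), and at so few control counts its size depends on that prior. The means were 4.34 ± 5.01 in droughted Bd21 and 6.22 ± 5.91 in droughted Bd3-1, against 0.177 ± 0.450 in control Bd21 and 0.167 ± 0.415 in control Bd3-1 (SD, n as above).

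**Figure D1:**
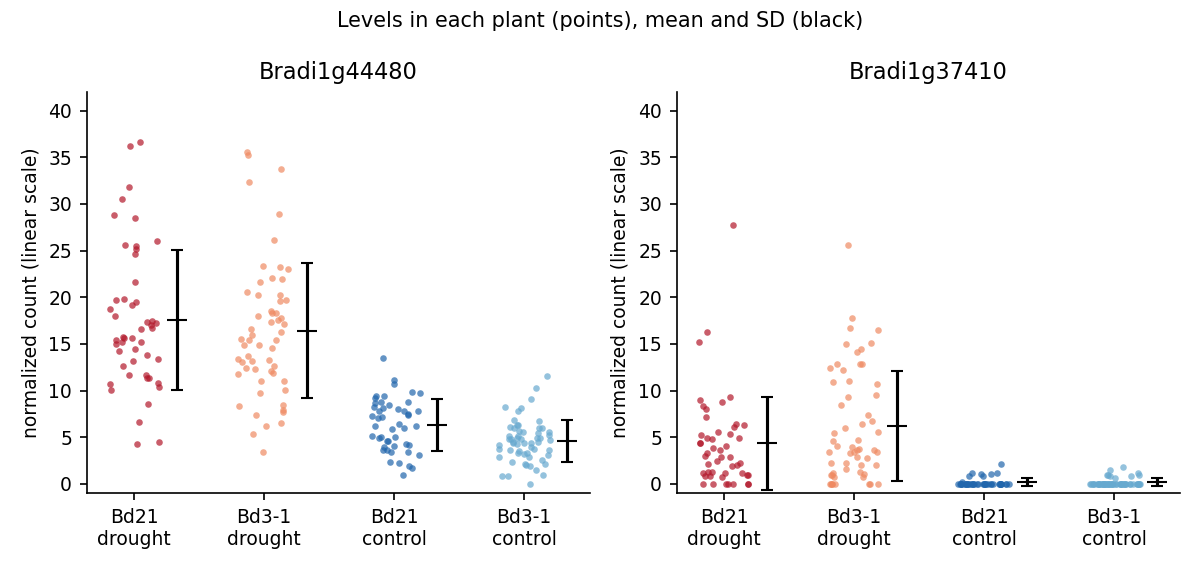
Normalized counts of Bradi1g44480 (left) and Bradi1g37410 (right) in each plant on a linear scale, for droughted Bd21, droughted Bd3-1, control Bd21 and control Bd3-1. Points are plants and the black bars are the mean and SD. Bradi1g44480 has medians of 15.7 and 15.5 in droughted Bd21 and Bd3-1, against 6.31 and 4.48 in their controls, and most control plants sit at 0 for Bradi1g37410.

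Bradi1g44480 had a relative spread between plants, counting error included, that was similar in both treatments. It had an SD over mean of 0.427 in droughted Bd21 and 0.442 in droughted Bd3-1, against 0.441 in control Bd21 and 0.495 in control Bd3-1. Its variance between plants was 3.26 times the variance that counting alone gives in droughted Bd21 and 3.07 times in droughted Bd3-1, against 1.22 times in control Bd21 and 1.02 times in control Bd3-1. For Bradi1g37410 it was 6.25 times in droughted Bd21 and 5.56 times in droughted Bd3-1, against 1.11 times in control Bd21 and 0.875 times in control Bd3-1. This ratio rises with the level at an equal relative spread, so it shows how far single plants could be resolved at this depth. Whether drought made plants more variable beyond counting error was not tested. In control leaves, differences between plants could hardly be told from counting error for either gene.

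The plants were grown in 4 batches, each of which held all 4 groups. Both genes had a higher mean in drought than in control in each batch and accession. The size of the difference varied: Bradi1g37410 averaged 6.45 normalized counts in droughted Bd21 plants of batch 2 and 1.32 in those of batch 4. In droughted Bd3-1 it ranged from 7.68 in batch 1 to 3.89 in batch 4. Bradi1g44480 averaged 21.1 in droughted Bd21 of batch 2 and 13.6 in those of batch 4.

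The accessions were then compared within each treatment. Bradi1g44480 was higher in Bd21 than in Bd3-1 under control watering, with a log2 fold change of 0.48 ± 0.14 (1.39-fold, adjusted p = 0.00303, edgeR quasi-likelihood test). Of all tested genes, 33.5% were called in this comparison and 18.0% were called higher in Bd21, so that a call by itself does not set the gene apart. Under drought the difference was 0.11 ± 0.11 (adjusted p = 0.521), where 36.1% of genes were called. The 95% interval of the drought difference ran from -0.12 to 0.33 on the log2 scale. From high to low, the mean levels stood in the order droughted Bd21, droughted Bd3-1, control Bd21 and control Bd3-1. The means of the control groups differed by the test and those of the droughted groups did not pass it, while single plants of the accessions overlapped in both treatments. With replicate 59 the drought difference was 0.10 ± 0.11 for Bradi1g44480 and -0.43 ± 0.26 for Bradi1g37410.

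Bradi1g37410 did not pass in either treatment. Its log2 fold change of Bd21 over Bd3-1 was -0.44 ± 0.26 under drought (adjusted p = 0.196) and 0.06 ± 0.31 under control watering (adjusted p = 0.943). Both accessions were aligned to transcripts of Bd21, and the effect of sequence differences in Bd3-1 on these comparisons was not tested.

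The drought response of the 2 genes was compared between the accessions by the product term of genotype and drought, for which 1.70% of genes passed at an adjusted p of 0.1, 1.12% with a smaller or more negative response in Bd21. Bradi1g44480 had a term of -0.38 ± 0.18 (Bd21 minus Bd3-1), with an unadjusted p of 0.0413 and an adjusted p of 0.446 (edgeR). Bradi1g37410 had a term of -0.50 (adjusted p = 0.929, edgeR). Neither passed. The unadjusted 95% interval of the term was -0.74 to -0.02 for Bradi1g44480.

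Among droughted plants, the plants with more Bradi1g44480 also tended to hold more Bradi1g37410, in both accessions. The study picked this relation on the same plants, so it is described without a test. On the scale of log2(normalized count + 1), Pearson's r was 0.675 in droughted Bd21 (Spearman's rho 0.636, n = 49) and 0.591 in droughted Bd3-1 (rho 0.620, n = 58). In control plants r was -0.034 in Bd21 (n = 48) and 0.203 in Bd3-1 (n = 58), where Bradi1g37410 held at most 2 counts in a plant. A relation was hardly measurable in control plants at this depth. With replicate 59, r was 0.590 in droughted Bd3-1 (n = 59).

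Single plants show both the relation and its scatter. The droughted Bd21 plant with the most Bradi1g37410 (27.8) held 36.3 normalized counts of Bradi1g44480, close to the highest level in the group. The Bd21 plant with the least Bradi1g44480 (4.29) held 0 of Bradi1g37410. In droughted Bd3-1 the plant with the most Bradi1g37410 (25.6) held 11.0 of Bradi1g44480, below the median of its group. The Bd3-1 plant with the most Bradi1g44480 (35.6) held 16.7 of Bradi1g37410, and the one with the least (3.37) held 2.25. The Bd21 plant with the most Bradi1g44480 (36.6) held 8.37 of Bradi1g37410.

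**Figure D2:**
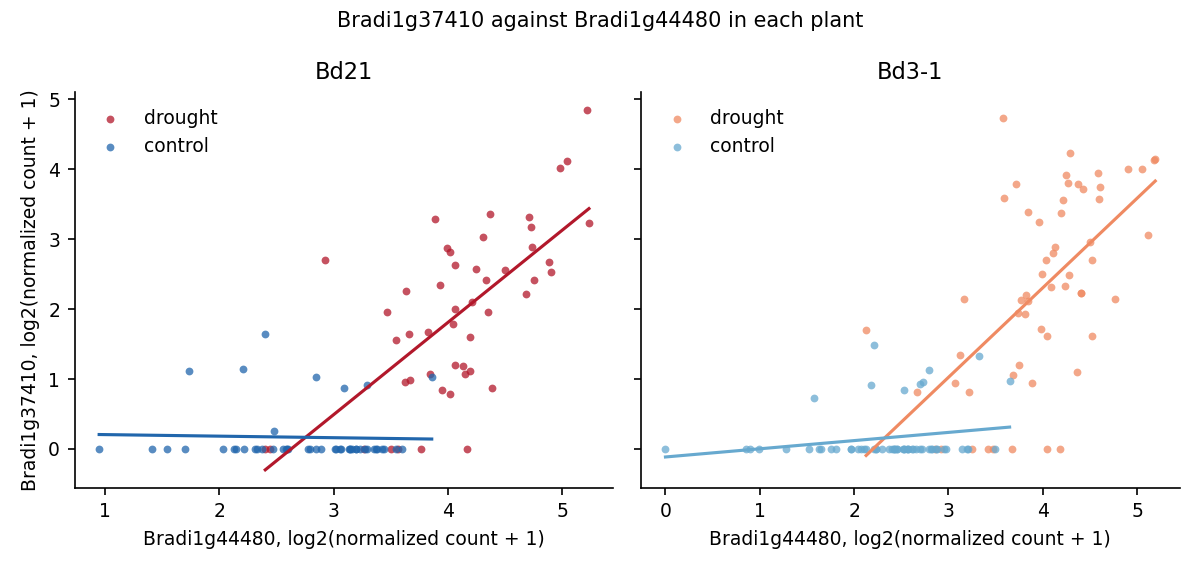
Bradi1g37410 against Bradi1g44480 in each plant, both as log2(normalized count + 1), for Bd21 (left) and Bd3-1 (right), with the least-squares line of each group. The droughted plants slope upward in both accessions (1.32 in Bd21 and 1.28 in Bd3-1), while most control plants lie at 0 of Bradi1g37410.

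The slope of Bradi1g37410 on Bradi1g44480 was 1.32 ± 0.21 (SE) in droughted Bd21 and 1.28 ± 0.23 in droughted Bd3-1. The difference, Bd21 minus Bd3-1, was 0.040 ± 0.32 (SE). The study had fitted genotype and drought terms of this slope on the same plants when it chose the pair, so the difference is given without a test. Control plants had a slope of -0.022 ± 0.095 in Bd21 and of 0.117 ± 0.076 in Bd3-1.

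Within growth batches, r of the pair in droughted Bd21 was 0.746, 0.742, 0.388 and 0.307 in batches 1 to 4, with 10 to 14 plants each. In droughted Bd3-1 it was 0.271, 0.543, 0.354 and 0.831, with 14 or 15 plants each. All of these were above 0, and the batches with the weakest relation differed between the accessions. By rank the relation was nearly absent in batch 4 of droughted Bd21 (rho 0.084, n = 11). In the other batches of both accessions rho was 0.262 to 0.753. Within sequencing plates r was 0.758 and 0.597 in droughted Bd21 (24 and 20 plants on plates 2 and 3), and 0.777, 0.547 and 0.552 in droughted Bd3-1 (6, 25 and 27 plants). Without the 2 plants farthest from the median of Bradi1g44480, r was 0.625 in droughted Bd21 and 0.611 in droughted Bd3-1. When all libraries were thinned to the lowest total among the droughted plants, r fell to 0.364 in Bd21 and 0.376 in Bd3-1.

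With the log2 library total, Bradi1g37410 had r = 0.314 among droughted Bd21 plants and 0.005 among droughted Bd3-1 plants. Holding the total constant left the pair at a partial r of 0.658 in Bd21 and 0.592 in Bd3-1.

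The genes that varied most like each member were ranked among 11952 genes in droughted Bd21 and 11798 in droughted Bd3-1, those whose droughted plants averaged 10 normalized counts or more, with both members added. These rankings are a description. Bradi1g37410 stood at place 2 among the genes most like Bradi1g44480 in droughted Bd21 and at place 42 in droughted Bd3-1. Seen from Bradi1g37410, Bradi1g44480 stood at place 7 in Bd21 and 35 in Bd3-1. The pair was thus high in both rankings, but other genes ranked higher from both ends.

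The 5 genes most like Bradi1g44480 in droughted Bd21 were Bradi1g45710 (r = 0.682), Bradi1g37410 itself, Bradi4g24650 (0.650), Bradi4g40850 (0.637) and Bradi2g54690 (0.624). The study's text gives Bradi4g24650 as an ortholog of rice ASR5, of a family of small proteins induced by ABA, stress and ripening, and calls Bradi4g40850 a gene of unknown function. In droughted Bd3-1 the 5 were Bradi2g47760 (0.698), Bradi4g40850 (0.685), Bradi2g23830 (0.682), Bradi5g19660 (0.672) and Bradi2g12160 (0.668). Only Bradi4g40850 was among the 5 in both accessions.

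The genes of these lists spanned small and large drought responses. Bradi2g12160 averaged 2178 ± 394 normalized counts in droughted Bd21 and 2083 ± 348 in droughted Bd3-1, against 1933 in control Bd21 and 1693 in control Bd3-1. That is a log2 fold change of 0.17 ± 0.05 in Bd21 and 0.29 ± 0.05 in Bd3-1. Bradi2g54690, from the Bd21 list, had 2.53 ± 0.23 in Bd21 and 2.73 ± 0.17 in Bd3-1. Over the 49 highest followers of Bradi1g44480 other than its partner, the median log2 fold change in Bd21 was 0.57 for the Bd21 list and 0.27 for the Bd3-1 list, beside 0.012 over all genes tested. In Bd3-1 it was 0.80 for the Bd21 list and 0.39 for the Bd3-1 list, beside -0.0027. These medians are a description without a test.

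Bradi4g40850 was the gene most like Bradi1g37410 in both accessions, with r = 0.790 in droughted Bd21 and 0.786 in droughted Bd3-1. It was itself nearly absent from control leaves, with means of 24.9 ± 27.1 in droughted Bd21 and 34.1 ± 34.3 in droughted Bd3-1, against 0.528 ± 0.816 in control Bd21 and 0.618 ± 0.852 in control Bd3-1. Its r with Bradi1g37410 was 0.199 in control Bd21 and -0.151 in control Bd3-1.

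After Bradi4g40850, the genes most like Bradi1g37410 in droughted Bd21 were Bradi3g50220 (r = 0.733), Bradi4g24650 (0.732), Bradi3g37623 (0.730) and Bradi2g14250 (0.707). In droughted Bd3-1 they were Bradi2g45567 (0.746), Bradi2g17550 (0.742), Bradi4g39520 (0.715) and Bradi4g17200 (0.709). Bradi4g17200 had r = 0.714 in droughted Bd21 too. Its mean there, 9.33, was under the minimum of 10, so it was neither ranked in Bd21 nor counted as common to both accessions. Bradi3g50220 is an ortholog of ATHB-7, an ABA-responsive homeodomain transcription factor, and Bradi4g39520 an ortholog of AITR3, of a family of ABA-induced transcription factors, per the study. The estimates of Bradi3g50220 were fractional in 96.2% of the cases above 0, which RSEM gives where reads also match another transcript, and its values are uncertain.

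At the other end stood genes that were lower where the members were higher. With Bradi1g44480 the lowest r were those of Bradi2g12047 (-0.646), Bradi3g19077 (-0.640) and Bradi3g48790 (-0.626) in droughted Bd21, and of Bradi1g22270 (-0.651), Bradi3g55560 (-0.640) and Bradi4g14260 (-0.628) in droughted Bd3-1. With Bradi1g37410 they were those of Bradi4g26750 (-0.690), Bradi2g44180 (-0.676) and Bradi1g76500 (-0.671) in droughted Bd21, and of Bradi1g45535 (-0.699), Bradi3g02910 (-0.643) and Bradi5g16170 (-0.640) in droughted Bd3-1. Bradi4g26750 was lower in drought, by a log2 fold change of -1.40 ± 0.07 in Bd21 and -1.60 ± 0.06 in Bd3-1. The sources used here give none of these genes a name.

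The followers of both members mostly responded to drought in the direction of the member. Of the 49 highest followers of Bradi1g37410 other than its partner, all 49 were called higher in drought in their own accession, for the Bd21 list and for the Bd3-1 list. For Bradi1g44480 it was 43 of 49 in Bd21 for the Bd21 list and 49 of 49 in Bd3-1 for the Bd3-1 list. Among genes ranked in Bd21, 18.0% were called higher and 16.3% lower, and in Bd3-1 23.7% were called higher and 23.0% lower. The same plants gave the ranking and the drought calls, so these counts are a description. Of the 50 lowest, 49 were called lower in their own accession for Bradi1g37410 in each, and 47 (Bd21) and 43 (Bd3-1) for Bradi1g44480, where 1 in Bd3-1 was called higher.

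The followers common to both accessions were counted for each member, without a test. Of the 50 genes with the highest r in each accession, 25 were common to both for Bradi1g37410 (50% of each list) and 8 for Bradi1g44480 (16% of each list). At the negative end, 11 of 50 were common for Bradi1g37410 and 2 of 50 for Bradi1g44480, Bradi1g78710 and Bradi4g25900, which were named after their values were seen. With growth batch and sequencing plate regressed out, the common genes at the high end numbered 15 for Bradi1g37410 and 4 for Bradi1g44480, and after thinning to equal depth 11 and 6.

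Besides the partner, the genes common to both lists of Bradi1g44480 were Bradi4g40850, Bradi3g37623, Bradi4g42400, Bradi2g17530, Bradi2g17550, Bradi1g06870 and Bradi1g30960, in the order of the lower of their 2 r (0.637 to 0.516). The estimates of Bradi1g06870 were fractional in 98.6% of the cases above 0, so its values are uncertain. For Bradi1g37410 the first 10 were Bradi4g40850, Bradi3g50220, Bradi2g17550, Bradi3g37623, Bradi3g11470, Bradi1g45710, Bradi4g24650, Bradi1g13760, Bradi2g45054 and Bradi3g26745, with lower r of 0.786 to 0.623. Bradi1g13760 is an ortholog of NCED2 per the study, of the dioxygenases that make the precursor of ABA. Within an accession, the followers of both members overlapped by 21 genes in Bd21 (42% of each list) and 7 in Bd3-1 (14%).

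**Figure D3:**
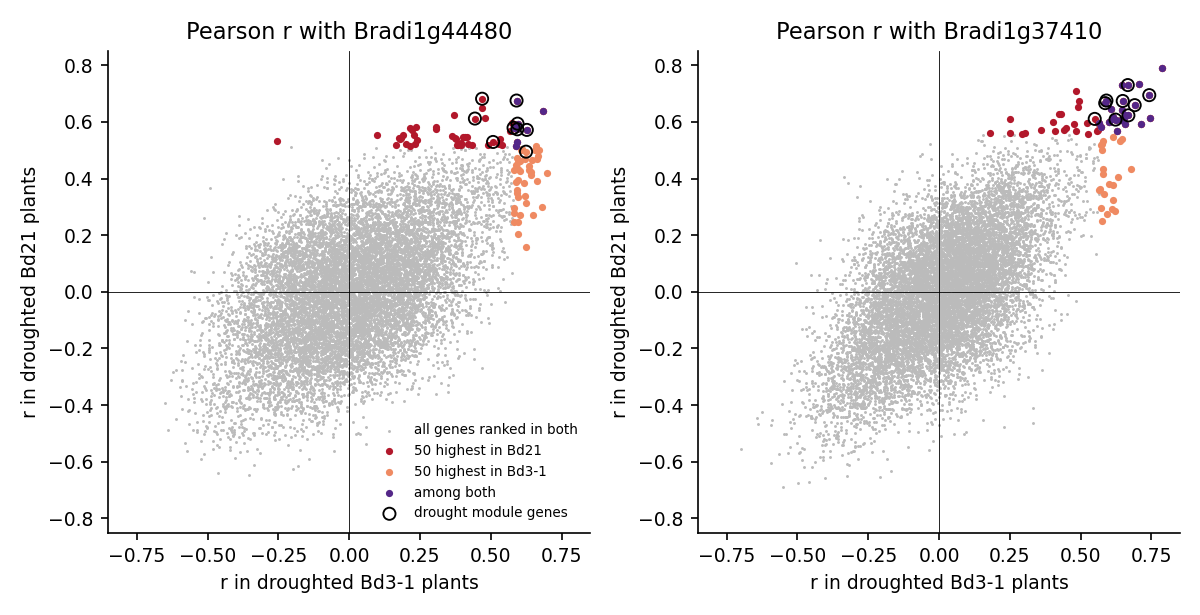
Pearson's r of each gene with Bradi1g44480 (left) and Bradi1g37410 (right) in droughted Bd3-1 plants (x axis) and droughted Bd21 plants (y axis). Grey points are all genes ranked in both accessions, coloured points are the 50 highest of each accession or of both, and open circles are the genes of the drought module ranked in both. Among the 50 highest, 8 are common to both accessions for Bradi1g44480 and 25 for Bradi1g37410.

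Followers found in 1 accession were tested in the plants of the other, which had not been used to rank them. The 10 highest of each member and accession gave 38 relations once the 2 members were left out. Of these, 36 passed at an adjusted p of 0.05 in the other accession by Pearson's r and 36 by Spearman's rho (100000 permutations, 2-sided, Benjamini-Hochberg over 38). Some pairs of genes were tested and counted in each direction, so the relations are not all separate pairs. These were Bradi4g40850 with both members, and Bradi3g50220, Bradi2g17550 and Bradi3g37623 with Bradi1g37410. For Bradi1g37410 all 19 passed, with r of 0.484 to 0.786 in Bd3-1 (9 relations, n = 58, permutation tests) and 0.434 to 0.790 in Bd21 (10 relations, n = 49). For Bradi1g44480, 8 of 9 passed in Bd3-1 (r 0.238 to 0.685) and 9 of 10 in Bd21 (0.272 to 0.637).

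The 2 relations that did not pass were Bradi3g12570 with Bradi1g44480 in Bd3-1 (r = 0.238, adjusted permutation p = 0.0718) and Bradi4g12750 with Bradi1g44480 in Bd21 (r = 0.272, adjusted permutation p = 0.0592). They were named after their values were seen, and 99.1% of the estimates of Bradi4g12750 above 0 were not whole. Without the 2 plants farthest from the member's median, r over the 38 relations kept its sign, with a lowest value of 0.217 and a highest of 0.767. An r as high as the weakest that passed was reached by 5.48% of ranked genes for Bradi1g44480 in Bd3-1 and 7.41% in Bd21, and by 0.966% for Bradi1g37410 in Bd3-1 and 1.67% in Bd21.

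Some of these followers belong to modules that the study built from the same plants, so they are not independent of its choice. Among the 17 relations of genes outside the 3 lists used here, 15 passed, with r of 0.301 to 0.615. The study's modules hold more genes than these lists. Whether the genes of the 17 relations belong to such modules was not checked. Both relations that did not pass were among these 17. Bradi2g45567, outside the lists, had r = 0.615 with Bradi1g37410 in droughted Bd21 (rho 0.581, adjusted permutation p = 2.11e-05, from 1e-05, the smallest that 100000 permutations give). Bradi2g14250 had r = 0.484 with it in droughted Bd3-1 (rho 0.409, adjusted permutation p = 0.000206).

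The lists of genes were taken from the study's text and supplement, with earlier results of these data known. The drought module holds 13 genes, both members included. It was built as the genes common to a module of droughted Bd21 and one of droughted Bd3-1. The water response list adds Bradi3g43870, another RAB18 ortholog, and Bradi4g24650. The list of ABA and drought genes holds 13 others. The study chose these lists on these plants, so neither their direction nor their r with the members is independent evidence.

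All 11 module genes other than the members were higher in drought in Bd21 and all 11 in Bd3-1 (edgeR, adjusted p under 0.05). Of all genes tested, 22.3% were called in Bd21, 11.6% as higher, and 30.9% in Bd3-1, 15.2% as higher. The median log2 fold change of the 11 was 2.28 in Bd21 and 2.43 in Bd3-1. Bradi3g37150 had 5.04 ± 0.34 in Bd21 and 4.84 ± 0.31 in Bd3-1, and Bradi1g11240 had 1.74 ± 0.16 in Bd21 and 1.05 ± 0.17 in Bd3-1. Bradi1g37410 was thus among the genes of the module with large responses, and Bradi1g44480 among those with small ones.

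The 11 module genes followed Bradi1g37410 with r of 0.608 to 0.730 in droughted Bd21 and 0.550 to 0.742 in droughted Bd3-1. They followed Bradi1g44480 with r of 0.494 to 0.682 in Bd21 and 0.444 to 0.627 in Bd3-1. An r above 0.5 with Bradi1g44480 was found for 9 of the 11 in each accession, beside 0.577% of all ranked genes in Bd21 and 1.41% in Bd3-1. For Bradi1g37410 it was 11 of 11 in each, beside 0.728% in Bd21 and 0.805% in Bd3-1. The median r over all ranked genes lay between 0.00 and 0.02. The study built the module from co-expression in these same droughted plants, with both members in it. A high r was therefore built in, and these counts are a description.

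When the mean log2 level of the 11 other module genes was held constant, the partial r of the pair was 0.224 in droughted Bd21 and 0.080 in droughted Bd3-1. With Bradi4g40850 alone held constant it was 0.364 in Bd21 and 0.117 in Bd3-1. These covariates were chosen after their values were seen, and the partial r is a description.

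The other dehydrin, Bradi3g43870, was as scarce as Bradi1g37410, with 3.94 ± 3.33 normalized counts in droughted Bd21 and 4.04 ± 4.64 in droughted Bd3-1, against 0.355 ± 0.761 in control Bd21 and 0.286 ± 0.669 in control Bd3-1. Its log2 fold change under drought reached 3.27 ± 0.32 for Bd21 and 3.39 ± 0.32 for Bd3-1. It followed Bradi1g37410 with r = 0.643 in droughted Bd21 and 0.569 in droughted Bd3-1, and Bradi1g44480 with 0.375 and 0.377. The ASR5 ortholog Bradi4g24650 was far more abundant, with 926 ± 293 in droughted Bd21 and 542 ± 173 in droughted Bd3-1, against 307 ± 65.7 in control Bd21 and 215 ± 62.9 in control Bd3-1.

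Of the 13 ABA and drought genes, 12 were higher in drought in Bd21 and 1 lower, and 12 were higher in Bd3-1. Over all genes tested, 11.6% were called higher and 10.7% lower in Bd21, and 15.2% higher in Bd3-1. The study chose these 13 genes on these plants, so the counts are a description. The NCED2 ortholog Bradi1g13760 had a log2 fold change of 4.01 ± 0.21 in Bd21 and 3.89 ± 0.20 in Bd3-1, and the AITR3 ortholog Bradi4g39520 had 3.04 ± 0.14 in Bd21 and 3.17 ± 0.09 in Bd3-1. The HAB1 ortholog Bradi2g18510, of the protein phosphatases that hold back ABA signalling, had 1.61 ± 0.08 in Bd21 and 1.65 ± 0.08 in Bd3-1. The CYP707A1 ortholog Bradi3g52660, of the enzymes that break down ABA, had 0.89 ± 0.09 in Bd21 and 0.67 ± 0.08 in Bd3-1. Bradi2g23740, which the study links to wax, was the gene lower in Bd21 (-0.48 ± 0.08) and did not pass in Bd3-1 (-0.08 ± 0.08), and 50.9% of its estimates were not whole.

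The relation of these genes to each member is given by medians, without a test. Their median r with Bradi1g37410 was 0.566 in droughted Bd21 and 0.528 in droughted Bd3-1, against 0.319 and 0.374 with Bradi1g44480. Bradi1g13760 had r = 0.643 in Bd21 and 0.646 in Bd3-1 with Bradi1g37410, and 0.406 and 0.518 with Bradi1g44480. Bradi2g23740 was the 1 gene with a negative r with both members in both accessions, at -0.569 in Bd21 and -0.323 in Bd3-1 with Bradi1g37410.

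**Figure D4:**
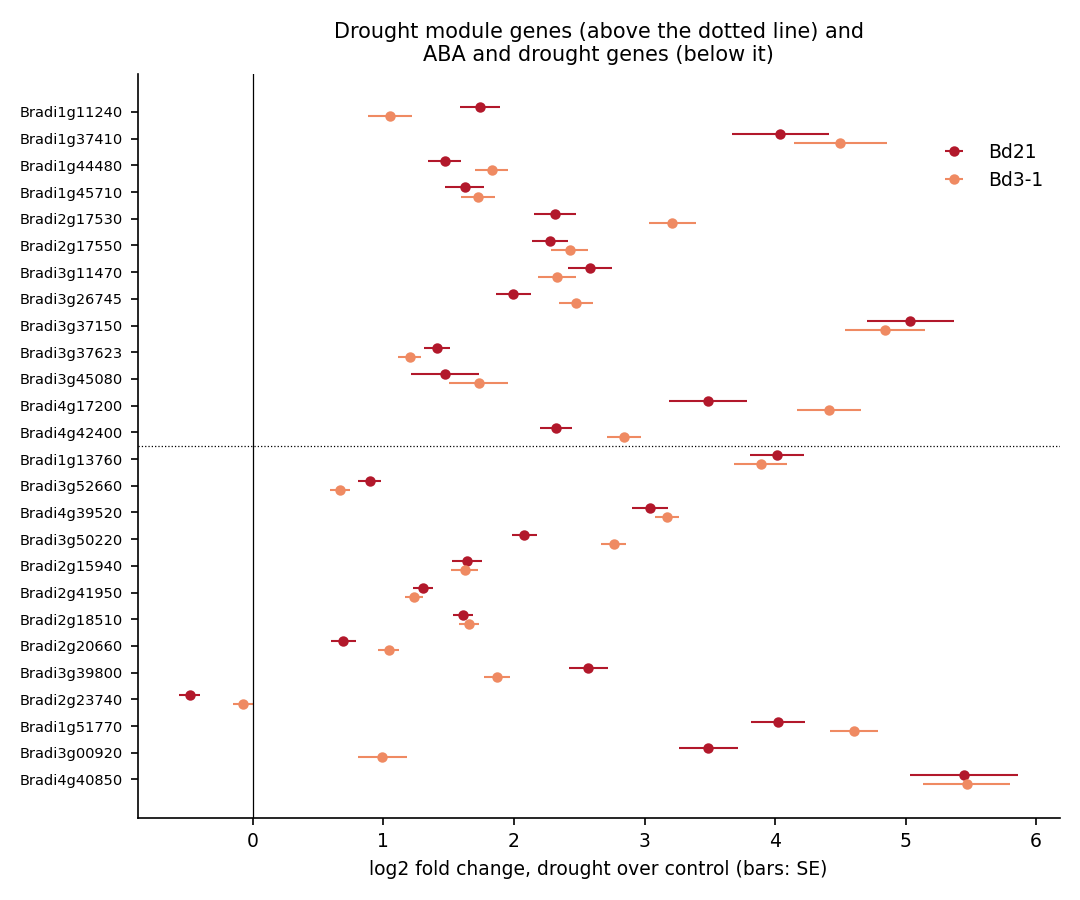
Log2 fold change of drought over control with its SE for the 13 drought module genes, both members included (above the dotted line), and the 13 ABA and drought genes (below it), with Bd21 above Bd3-1 for each gene. All module genes lie above 0, and Bradi2g23740 is the gene of the lower list that lies below 0.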

How the data were processed

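Leaf RNA of 214 plants was sequenced by 3′ digital gene expression, which reads a tag near the 3′ end of a transcript. Per the study's methods and the submitters' processing notes, the authors trimmed reads (Trimmomatic 0.39, cutadapt 2.10), aligned them with Bowtie2 2.4.0 to primary Bd21 transcripts and the plastid genome, removed duplicates by molecular identifier and deposited expected counts estimated with RSEM 1.3.3, not normalized. Of the estimates above 0, 86.3% were whole, and those of both members were all whole. All table columns matched 1 sample each, and growth batch and sequencing plate came from the study's sample sheet.

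A gene was tested where over 10 libraries held a count of it. Rounded expected counts were fitted with edgeR 4.0.16 (R 4.3.3; TMM factors, trended dispersion, quasi-likelihood test) in droughted plants, in control plants, in each accession, and over all groups with the product term, without the plant labelled Bd3-1 drought replicate 59. P-values are Benjamini-Hochberg adjusted over all genes (threshold 0.05, and 0.1 for the product term). SE is the fold change over the square root of F. Alternatives included DESeq2 1.42.0, other scaling and filters, a replicate block, batch covariates and thinning. Correlations used log2(count / relative log expression factor + 1). Scripts were tested on simulated data. Depth was 0.525 to 8.37 M counts per library, so a scarce gene such as Bradi1g37410 carries large counting error.

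The members and lists were chosen with earlier results of these data known. Named genes were both members, the 5 highest and 3 lowest r for each member and accession, up to 10 genes common to the 50 highest of both accessions, and the 3 lists. Each plant is a separate individual.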

Additional observations from a re-analysis of the deposited data

Results flagged for a closer look

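Among the 47 genes that the rule for named genes covers, 6 had a product term of genotype and drought past the threshold of 0.1 (edgeR, adjusted over all genes), so their drought responses differed between the accessions. Over all genes tested, 1.70% passed (445 of 26164). Neither Bradi1g44480 nor Bradi1g37410 was among them. Bradi3g00920 was counted, although the study had singled it out for this effect on the same plants, so its place in the count is not independent evidence. Bradi3g50220, Bradi3g39800 and Bradi2g23740 were in the same list of ABA and drought genes. The study placed these genes in a module found only in droughted Bd21 and reported as enriched for genes with such effects. Their terms and the count of 6 are therefore not independent of the study's choice.

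The module gene Bradi2g17530 had a term of -0.91 ± 0.26 (adjusted p = 0.0452, edgeR), from drought log2 fold changes of 2.31 in Bd21 and 3.21 in Bd3-1. Bradi5g19660, a follower of Bradi1g44480 in Bd3-1, had -0.47 ± 0.11 (adjusted p = 0.00665), from 0.59 in Bd21 and 1.05 in Bd3-1. The ATHB-7 ortholog Bradi3g50220 had -0.70 ± 0.14 (adjusted p = 0.000481), from 2.08 in Bd21 and 2.76 in Bd3-1, and most of its estimates were not whole. Bradi2g23740 had -0.42 ± 0.11 (adjusted p = 0.0269), from -0.48 in Bd21 and -0.08 in Bd3-1.

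A larger response in Bd21 was measured for Bradi3g00920, a gene with leucine-rich repeats per the study. Its term was 2.48 ± 0.38, from 3.49 in Bd21 and 0.99 in Bd3-1. The study had singled out this gene on the same plants for the strength of this very effect, so its term is a description without a test. Bradi3g39800, linked to stomatal movement by the study, had 0.68 ± 0.19 (adjusted p = 0.0314), from 2.57 in Bd21 and 1.87 in Bd3-1.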

How the results depend on the processing

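Of 171 values recomputed under other processing settings, 164 kept their direction and their side of the threshold or stayed close to the main value, and 7 moved. The filterByExpr filter, which tests fewer genes, left 5923 genes called between the accessions under drought, against 9445, and 5302 under control watering, against 8778. It removed Bradi1g37410 from all 5 fits and Bradi1g44480 from the comparison of control plants, so no value could be given for them there. Thinning to equal depth lowered r of the pair to 0.364 in droughted Bd21 and 0.376 in droughted Bd3-1 and the followers of Bradi1g37410 common to both accessions to 11. Residuals after growth batch and plate gave 15 common followers for Bradi1g37410 and 4 for Bradi1g44480. The relations of followers that passed in the other accession numbered 27 after thinning and 36 to 38 under the other settings. The genotype difference of Bradi1g44480 under control watering stayed called, with adjusted p of 0.00198 to 0.0209.

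Plants with the same replicate number are different individuals. Their deviations from the group means correlated by 0.062 to 0.102 on average, with 14 to 30 of the 48 to 58 pairs above 0.1 in each pair of groups. Plants with other numbers correlated by -0.0020 to -0.0011 on average, so plants with the same number were slightly more alike. The numbers were not taken to pair the plants in the main fits, since each plant is a separate individual. With the replicate number as a block, on the dispersion trend of the fit without it, 8404 genes were called between the accessions under drought, 7706 under control watering and 514 for the product term. The difference of Bradi1g44480 under control watering was 0.42 ± 0.14 with the block (adjusted p = 0.0209, edgeR).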

Other observations

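The levels of genes that follow the members were also compared between the accessions. The module gene Bradi4g42400 was higher in Bd21 by a log2 fold change of 1.62 ± 0.11 under drought (adjusted p = 7.07e-26, edgeR) and 2.15 ± 0.13 under control watering (adjusted p = 4.92e-31, edgeR). Its means were 102 ± 40.1 in droughted Bd21 and 33.4 ± 14.6 in droughted Bd3-1. Of the 11 module genes other than the members, 3 were higher and 3 lower in Bd21 under drought, and 3 were higher and 2 lower under control watering. Over all genes tested, 19.2% were called higher and 16.9% lower in Bd21 under drought, and 18.0% higher and 15.6% lower under control watering, so these counts do not set the module apart. The ASR5 ortholog Bradi4g24650 was higher in Bd21 by 0.77 ± 0.09 under drought and 0.52 ± 0.07 under control watering.

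Among the ABA and drought genes, 5 of 13 were higher and 3 lower in Bd21 under drought, and 5 were higher and 2 lower under control watering, beside the same shares over all genes. Bradi3g39800 was lower in Bd21 by a log2 fold change of -0.95 ± 0.11 under drought and -1.65 ± 0.14 under control watering, with means of 43.4 ± 23.1 in droughted Bd21 and 84.8 ± 29.9 in droughted Bd3-1. The effect of sequence differences in Bd3-1 on these levels was not tested.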
